A study of Homo sapiens with 8 samples.

Results

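The NRF2 and glutathione defence genes are 10 genes whose products sense oxidative stress, make and recycle glutathione, or clear reactive compounds: NFE2L2, KEAP1, SLC7A11, GCLC, GCLM, GSR, TXNRD1, NQO1, HMOX1 and ABCC3. They were chosen by gene symbol, and all 10 were found, each under 1 identifier, among the 58735 genes of the count table. All 10 passed the filter on low counts. Their levels were measured by RNA-seq in 8 libraries of SRA01/04, a virus-transformed line of human lens epithelium. The shControl group (4 libraries, genotype given as WT) carried a control short hairpin RNA, and the shSmurf1 group (4 libraries, Smurf1 knockdown) a hairpin against SMURF1, a ubiquitin ligase that acts on SMAD proteins. Both groups had 48 h of recombinant human TGF-β2 at 20 ng/ml, so no untreated level is known. The labels name a single knockdown line with no rescue, and do not say whether it is 1 clone. Loss of SMURF1 and any other way in which the 2 lines differ cannot be told apart. Titles number them as biological replicates and give no word on separate cultures, so p-values measure only the spread between them, which may be technical. In RNA from a whole culture, fewer cells of a kind and less RNA per cell cannot be told apart.

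NRF2, the protein of NFE2L2, is a transcription factor that is held at a low level by KEAP1, an adaptor that hands it to a CUL3 ubiquitin ligase. Oxidants and electrophiles modify KEAP1, NRF2 escapes, and with small MAF partners it binds antioxidant response elements near genes for glutathione synthesis, thioredoxin recycling, quinone reduction and export, while BACH1 competes for the same elements. In the lens, glutathione keeps crystallins and membrane proteins reduced, and its loss accompanies cataract.

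Library totals ranged from 15000813 to 17030394 counts in shControl and from 14688651 to 16789144 in shSmurf1. SMURF1 itself, the check of the labels, lay between 85.8 and 93.3 CPM (counts relative to library size, scaled by TMM, the trimmed mean of M-values) in shControl and between 50.4 and 51.4 CPM in shSmurf1. Within the shSmurf1 group, replicate 3 stood apart: log2 CPM fell with gene GC content there, by 0.107 per 10 percentage points relative to the mean of all libraries, and rose by 0.071 to 0.11 in the other 3. All 4 shControl libraries had slopes between −0.058 and −0.026, so the GC trend also moved with the groups. Mitochondrially encoded genes took 4.03% to 4.40% of counts in shControl and 5.07% to 6.34% in shSmurf1, with the highest share in replicate 3. Of 10 lens epithelial markers, 3 had enough counts to test. PAX6 did not pass (33.3 and 34.0 CPM in shControl and shSmurf1), while GJA1 fell from 80.0 ± 3.01 to 44.9 ± 3.31 CPM (edgeR adjusted p = 1.28e-08) and SIX3 from 16.2 ± 1.37 to 12.6 ± 0.975 CPM (edgeR adjusted p = 0.0106). The 10 markers summed to 127 to 134 CPM in shControl and 88.9 to 97.9 CPM in shSmurf1, without overlap. GJA1 was the largest part of both sums, so their difference does not stand for the markers as a set. FOXE3, CRYAA and CDH1 had 10, 4 and 4 counts over all libraries together. The 8 fibroblast markers, led by COL1A1, summed to 2460 to 2680 CPM in shControl and 1910 to 2630 CPM in shSmurf1. COL1A1 itself did not pass (edgeR adjusted p = 0.486). Of the 7 tested, 2 were higher, PDGFRB (89.9 and 117 CPM in shControl and shSmurf1) and LUM (0.28 and 2.16 CPM). The 1 that was lower was COL1A2 (244 and 121 CPM, edgeR adjusted p = 3.36e-11). Leukocyte markers summed to 6.27 to 8.59 CPM and 11.7 to 14.5 CPM, most of it CD14 (6.76 and 13.1 CPM), with LYZ and CD3E at 0 in every library. Whether GC content, mitochondrial share or these markers play a part in the results was not tested, except where a value is given.

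Of the 10 genes, 2 were higher and 4 lower in shSmurf1 at an adjusted p under 0.05 (edgeR quasi-likelihood test, Benjamini-Hochberg adjustment over all 15647 genes tested). Over all genes tested, 22.5% passed, 10.3% as higher and 12.2% as lower. ABCC3 and KEAP1 were higher, and GCLM, HMOX1, SLC7A11 and TXNRD1 lower. The median log2 fold change of the 10 was −0.14, against 0.0074 over all genes tested. The 2 groups did not overlap in CPM in ABCC3, which was higher, and in GCLM, SLC7A11 and TXNRD1, which were lower. Over all genes tested, the groups did not overlap in 23.7%, 10.6% with shSmurf1 higher and 13.1% with it lower.

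**Figure D1:**
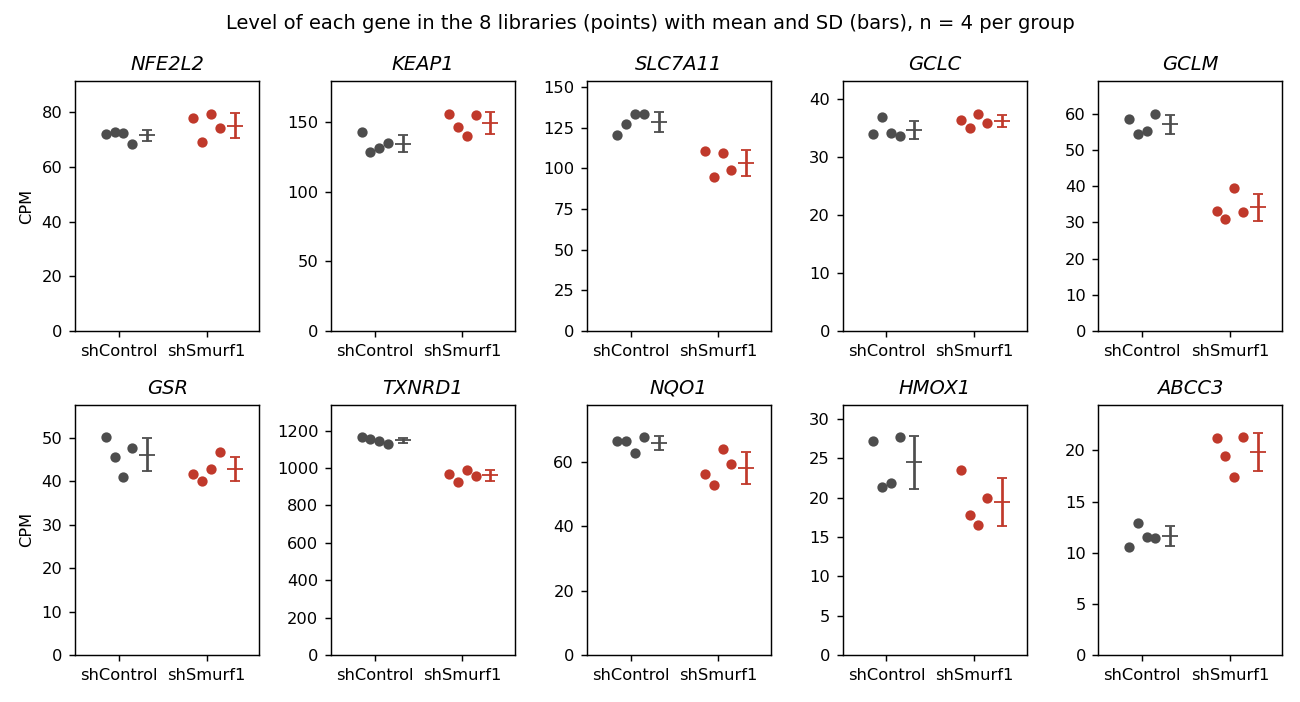
CPM (y axis, from 0) of each of the 10 genes in the 4 shControl (grey) and 4 shSmurf1 (red) libraries, in replicate order from left to right, with the mean and SD beside the points. The groups stand clear of each other in GCLM, SLC7A11, TXNRD1 and ABCC3 and overlap in the other panels.

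The regulator pair showed small differences. NFE2L2 (ENSG00000116044, GRCh38 chromosome 2, 177227595 to 177392697, minus strand), which encodes NRF2, lay at 72.0, 72.8, 72.5 and 68.3 CPM in shControl and at 77.7, 68.9, 79.4 and 74.0 CPM in shSmurf1. The groups overlapped, and the log2 fold change of 0.07 ± 0.058 (SE) did not pass (edgeR adjusted p = 0.43), with a 95% interval of −0.05 to 0.19. KEAP1 (ENSG00000079999, chromosome 19, 10486120 to 10503741, minus strand) lay at 143, 129, 131 and 135 CPM in shControl and at 156, 146, 140 and 155 CPM in shSmurf1. Replicate 3 of shSmurf1 and replicate 1 of shControl made the groups overlap, and the log2 fold change of 0.15 ± 0.054 passed narrowly (edgeR adjusted p = 0.0459). KEAP1 has a GC content of 60.3%, the highest of the 10, and after correction for GC content within libraries its log2 fold change was 0.071 and did not pass (edgeR adjusted p = 0.255). It passed in 7 of 17 other fits, with adjusted p between 0.00117 and 0.255, and not when replicate 2, 3 or 4 of shControl or replicate 1, 2 or 4 of shSmurf1 was left out. NFE2L2 shares exon bases with AGPS and 2 unnamed gene models, and counts without strand cannot tell such neighbours apart. Within each library, the log2 ratio of NFE2L2 to KEAP1 counts averaged −0.91 ± 0.084 (SD, n = 4) in shControl and −0.99 ± 0.12 in shSmurf1, which overlapped (difference −0.084 ± 0.075 SE, exact permutation p = 0.286, 0.429 adjusted over the 6 ratios tested).

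Of the 15 regulators of the NRF2 pathway, which include these 2, 2 were higher and 0 lower, or 13.3% against 22.5% of all genes tested (edgeR). DESeq2 called 2 higher and 0 lower, and limma-voom 1 and 0. Over the 15647 genes tested, limma-voom called 3499, or 22.4%. DESeq2 called 3553, or 23.2% of the genes to which it gave an adjusted p. No test over a list was run. The other regulator that passed was MAFG, a small MAF partner of NRF2, which lay between 80.4 and 98.1 CPM in shControl and at 108, 111, 86.3 and 118 CPM in shSmurf1. Its log2 fold change was 0.23 ± 0.081 (edgeR adjusted p = 0.0459), and replicate 3 fell inside the shControl range. MAFG passed in 9 of 17 other fits. BACH1, the repressor that competes with NRF2, averaged 100.3 ± 4.18 CPM in shControl and 101 ± 9.40 CPM in shSmurf1 (log2 fold change 0.01 ± 0.063, edgeR adjusted p = 0.926), a difference whose sign changed in 2 of 17 other fits. The log2 ratio of BACH1 to NFE2L2 differed by −0.062 ± 0.060 between groups that overlapped (exact permutation p = 0.4, adjusted 0.457). NFE2L1, a related factor and the highest regulator per exon length among those that did not pass, had 539 ± 7.34 and 527 ± 25.9 CPM. The CUL3 ligase subunit gene did not pass (0.03 ± 0.066).

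Of the 10 genes, the one with the largest fall belongs to glutathione supply. GCLM (ENSG00000023909, chromosome 1, 93885205 to 93909456, minus strand) encodes the modifier subunit of glutamate-cysteine ligase, which makes the first bond of glutathione. It lay at 58.5, 54.4, 55.2 and 59.99 CPM in shControl and at 33.1, 31.0, 39.4 and 33.0 CPM in shSmurf1. Every shSmurf1 library was below every shControl library, with replicate 3 the highest of the shSmurf1 group. GCLM fell to 59.8% of control (log2 fold change −0.74 ± 0.075, edgeR adjusted p = 5.64e-07), and the size of this change was above that of 94.8% of all genes tested. GCLC (ENSG00000001084, chromosome 6, 53497341 to 53616970, minus strand), the catalytic subunit of the same enzyme, lay at 34.1, 36.9, 34.2 and 33.8 CPM in shControl and at 36.4, 35.1, 37.5 and 35.9 CPM in shSmurf1. Those ranges overlapped, and the log2 fold change of 0.06 ± 0.067 did not pass (edgeR adjusted p = 0.56), with a 95% interval of −0.08 to 0.20. The interval for GCLM was −0.90 to −0.59. GCLC shares exon bases with the gene models AL033397.1 and AL033397.2, and counts without strand cannot tell such neighbours apart.

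The subunits were therefore set against each other within each library, a ratio that does not depend on library scaling. The log2 ratio of GCLM to GCLC counts was 0.78, 0.56, 0.69 and 0.83 in shControl and −0.14, −0.18, 0.07 and −0.12 in shSmurf1. The groups did not overlap. The difference was −0.81 ± 0.081 (SE), a ratio 1.75-fold lower in shSmurf1, with an exact permutation p of 0.0286, the smallest that 4 against 4 libraries can give. Adjusted over the 6 ratios it was 0.0858, which did not pass. Even the smallest p cannot pass this adjustment unless most of the 6 ratios reach it, so the adjusted value cannot decide the question. Per kilobase of exon, GCLM stood at 2.63 ± 0.21 times GCLC in shControl and 1.50 ± 0.12 times in shSmurf1.

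GCLM sits among genes that were also lower. Of the 54 other tested genes that start within 5 Mb of it, 21 were lower and 1 higher, and their median log2 fold change was −0.265. GCLM lay at −0.476 relative to that median, and at −0.476 and −0.453 with windows of 2 and 10 Mb. No other gene of the 10 had neighbours with a median beyond 0.1 in either direction within 5 Mb. SMURF1, the target of the hairpin, did: its 113 neighbours had a median of −0.232, with 47 lower and 1 higher, and SMURF1 itself (log2 fold change −0.80 ± 0.055) lay at −0.567 relative to them. Whether the neighbourhood plays a part in the fall of either gene was not tested.

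**Figure D2:**
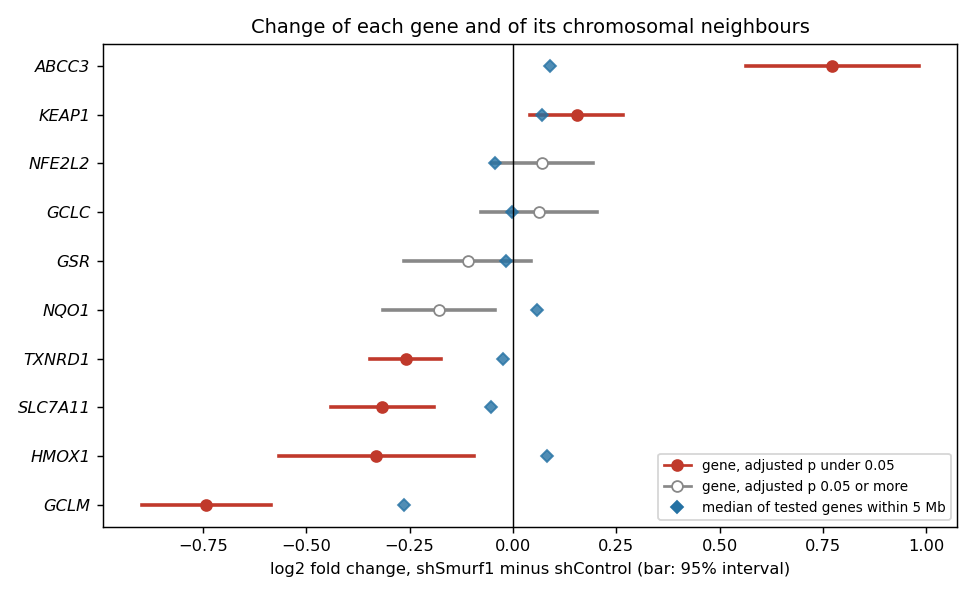
Log2 fold change of each gene (x axis, circles with 95% intervals; filled red where the adjusted p is under 0.05, open grey otherwise) and the median of the other tested genes within 5 Mb (blue diamonds). GCLM lies furthest left at −0.74 with neighbours at −0.265, and ABCC3 furthest right at 0.77 with neighbours at 0.09.

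The stretches of DNA before the start of GCLM, GCLC and TXNRD1 are shown as examples with and without a motif match: the subunits of 1 enzyme, of which GCLM fell and GCLC did not pass, and TXNRD1, which fell. They were chosen with these outcomes known. They are the 250 bases upstream of the RefSeq start (GRCh38.p14), 5′ to 3′ on the strand of the gene, with matches to the core of the antioxidant response element in capitals (TGACNNNGC, or GCNNNGTCA where it lies on the other strand).
GCLM (chr1:93909431-93909680, minus strand): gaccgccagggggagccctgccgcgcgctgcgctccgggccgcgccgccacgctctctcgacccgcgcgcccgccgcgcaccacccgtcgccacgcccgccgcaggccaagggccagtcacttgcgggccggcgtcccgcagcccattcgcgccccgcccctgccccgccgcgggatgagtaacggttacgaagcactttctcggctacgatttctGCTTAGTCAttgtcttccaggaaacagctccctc
GCLC (chr6:53545102-53545351, minus strand): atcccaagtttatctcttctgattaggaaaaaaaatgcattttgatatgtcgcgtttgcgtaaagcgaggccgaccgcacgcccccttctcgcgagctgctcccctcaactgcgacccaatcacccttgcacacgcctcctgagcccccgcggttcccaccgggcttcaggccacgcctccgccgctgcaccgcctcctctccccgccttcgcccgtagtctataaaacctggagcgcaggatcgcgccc
TXNRD1 (chr12:104215529-104215778, plus strand): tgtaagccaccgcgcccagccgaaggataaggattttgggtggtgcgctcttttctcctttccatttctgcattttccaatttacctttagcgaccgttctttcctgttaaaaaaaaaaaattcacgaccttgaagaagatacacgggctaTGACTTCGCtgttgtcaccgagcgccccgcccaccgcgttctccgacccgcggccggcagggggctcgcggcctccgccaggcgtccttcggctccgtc
The GCLM window holds 1 match, whose first base lies 34 bases before the start, and the TXNRD1 window shown holds 1, which begins 99 bases before it. The GCLC window holds 0. The table of promoters had windows for 6 of the 10 genes and none for SLC7A11, GSR, HMOX1 and ABCC3. A match was found for 3 of the 6, in GCLM, in both windows of TXNRD1 and in 1 of the 2 windows of KEAP1, which was higher, and none for NFE2L2 or NQO1. Of all 35116 promoter windows of the same length, 10.9% hold the core, and of 10819 tested genes, 15.8% have it in at least 1 window. In the wider redox list described further on, it was found for 3 of 16 genes that were lower (18.8%), 1 of 7 that were higher (14.3%) and 14 of 64 that did not pass (21.9%). A match is a string of letters and not evidence of binding. Only these 250 bases were searched, so a window without a match does not show that the gene lacks an element elsewhere.

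SLC7A11 (ENSG00000151012, chromosome 4, 138164097 to 138242349, minus strand) encodes the cystine transporter that feeds glutathione synthesis. It lay at 121, 127, 133 and 134 CPM in shControl and at 111, 94.7, 109 and 98.9 CPM in shSmurf1. The highest shSmurf1 library was below the lowest shControl library. The log2 fold change was −0.32 ± 0.060 (edgeR adjusted p = 0.000622), or 80.3% of control, and after correction for GC content it was −0.22 (edgeR adjusted p = 0.00106). The log2 ratio of SLC7A11 to GCLC counts was 1.89 ± 0.10 in shControl and 1.51 ± 0.077 in shSmurf1 (SD, n = 4 each), without overlap between the groups (exact permutation p = 0.0286, adjusted 0.0858). SLC7A11 is also known as a target of ATF4, the amino acid stress factor. CHAC1, another ATF4 target and an enzyme that degrades glutathione, averaged 25.1 CPM in shControl and 22.6 CPM in shSmurf1 and did not pass (−0.15 ± 0.098). SESN2, which ATF4 also induces, was lower (−0.45 ± 0.083, edgeR adjusted p = 0.000456). Whether ATF4 plays a part was not tested. A gene on the opposite strand, SLC7A11-AS1, shares exon bases with SLC7A11, and counts without strand cannot tell the 2 apart.

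Of the 13 genes of glutathione supply, GCLM and SLC7A11 were lower and 0 were higher, or 15.4% against 22.5% of all genes tested (edgeR). DESeq2 and limma-voom each called 0 higher and 2 lower. After correction for GC content 6 were lower and 0 higher, in a fit where 28.2% of all genes tested passed. GSS, glutathione synthetase, lay higher in every shSmurf1 library, from 71.9 to 76.9 CPM against 65.5 to 69.9 CPM, but did not pass (0.13 ± 0.055, edgeR adjusted p = 0.11). SLC3A2, the heavy chain that pairs with SLC7A11, averaged 204 ± 7.66 and 192 ± 17.5 CPM and did not pass (−0.09 ± 0.060). It did pass as lower after that correction (−0.15, edgeR adjusted p = 0.00904). CBS, which feeds cysteine synthesis, ranged from 8.41 to 45.7 CPM within shControl alone and did not pass (−0.79 ± 0.34). GSS and CBS were picked for mention after their values were seen, as was CHAC1.

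**Figure D3:**
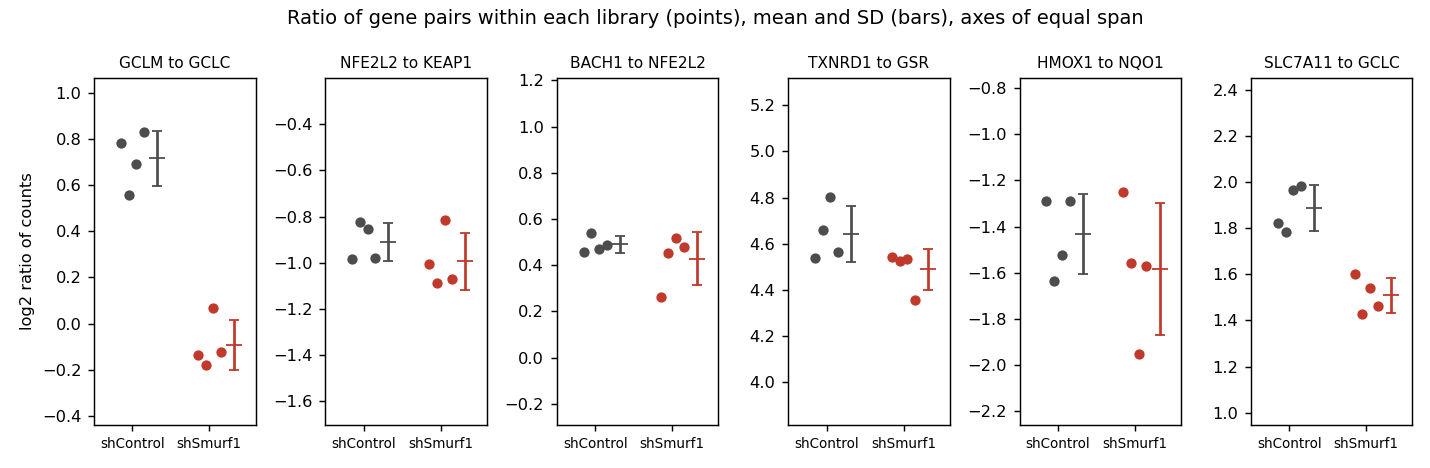
Log2 ratio of counts of 6 gene pairs within each library (points, replicate order from left to right; grey shControl, red shSmurf1), with the mean and SD beside them; all y axes span the same distance. The groups separate in the ratios of GCLM to GCLC and of SLC7A11 to GCLC and overlap in the other 4.

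The reductases of the recycling steps follow. GSR (ENSG00000104687), glutathione reductase, which returns oxidised glutathione to its reduced form, lay at 50.1, 45.7, 41.1 and 47.8 CPM in shControl and at 41.6, 40.1, 42.8 and 46.7 CPM in shSmurf1. Those ranges overlapped and the log2 fold change of −0.11 ± 0.073 did not pass (edgeR adjusted p = 0.321), with a 95% interval of −0.26 to 0.04. TXNRD1 (ENSG00000198431, chromosome 12, 104215779 to 104350305, plus strand), thioredoxin reductase, lay at 1164, 1156, 1147 and 1131 CPM in shControl and at 969, 924, 991 and 956 CPM in shSmurf1. All 4 shSmurf1 libraries were below the shControl range. The log2 fold change was −0.26 ± 0.041 (edgeR adjusted p = 0.00011), or 83.6% of control. The log2 ratio of TXNRD1 to GSR averaged 4.64 ± 0.12 in shControl and 4.49 ± 0.089 in shSmurf1, with overlap (difference −0.15 ± 0.075, exact permutation p = 0.0571, adjusted 0.114), so a difference between the 2 reductases in their response was not shown.

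Among the 13 thioredoxin genes, 4 were lower and 0 higher, or 30.8% against 22.5% of all genes tested (edgeR). DESeq2 and limma-voom each called 4 lower and 0 higher. TXNIP, which binds and inhibits thioredoxin, had the largest fall, from 133 ± 4.45 to 76.3 ± 6.60 CPM (log2 fold change −0.80 ± 0.061, edgeR adjusted p = 1.46e-08). TXN, thioredoxin itself, averaged 200.5 ± 15.7 CPM in shControl and 160 ± 26.4 CPM in shSmurf1, and replicate 3 of shSmurf1 at 193 CPM lay inside the shControl range (−0.32 ± 0.086, edgeR adjusted p = 0.00985). PRDX5, a peroxiredoxin, was lower, with that library at 95.7 CPM and the other 3 at 122 to 137 CPM (−0.24 ± 0.081, edgeR adjusted p = 0.0369). In shControl PRDX5 lay at 135 to 150 CPM, so the groups overlapped. Without replicate 3 of shSmurf1 the change in PRDX5 was −0.14 (edgeR adjusted p = 0.0185), in a fit where 33.7% of all genes tested passed. PRDX5 passed in 11 of 17 other fits, and not with library totals in place of TMM scaling (edgeR adjusted p = 0.0625). PRDX1 did not pass (194 ± 3.14 and 188 ± 11.5 CPM), nor did SRXN1, the sulfiredoxin that repairs peroxiredoxins and a known NRF2 target (0.13 ± 0.17; picked after its value was seen).

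Of 27 genes that use glutathione, 23 were tested, 2 higher and 3 lower, or 21.7% against 22.5% of all genes tested. GSTM3, a glutathione transferase, fell to 11.7% of the shControl mean, with 36 to 50 counts per shControl library and 2 to 8 per shSmurf1 library. It belongs to a cluster of close copies whose reads can be split or lost. GLRX, glutaredoxin, fell from 23.2 ± 1.72 to 15.8 ± 0.488 CPM (log2 fold change −0.56 ± 0.085, edgeR adjusted p = 7.73e-05). GPX8, a peroxidase of the endoplasmic reticulum, was the third lower gene (−0.21 ± 0.053; named after its value was seen). GPX3, a secreted peroxidase, rose from 15.7 ± 0.720 to 21.2 ± 2.40 CPM (0.43 ± 0.094, edgeR adjusted p = 0.00226). GSTO2 was higher on 16 to 45 counts per library (edgeR adjusted p = 0.0411) and passed in 9 of 17 other fits. GSTP1, a transferase and the highest per exon length of those that did not pass, averaged 268 ± 17.3 and 255 ± 11.7 CPM. It passed as lower in 2 of 17 other fits, among them the correction for GC content (−0.17, edgeR adjusted p = 0.0122).

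Enzymes of quinone and haem metabolism follow. NQO1 (ENSG00000181019, chromosome 16, 69706996 to 69726951, minus strand), the quinone reductase often used as a readout of NRF2, lay at 66.5, 66.4, 62.7 and 67.6 CPM in shControl and at 56.1, 52.7, 64.1 and 59.5 CPM in shSmurf1. Only replicate 3 of shSmurf1 reached the shControl range. The log2 fold change of −0.18 ± 0.065 did not pass (edgeR adjusted p = 0.0518), and without that replicate it was −0.23 and passed (edgeR adjusted p = 0.00151). In that fit 33.7% of all genes tested passed, against 22.5% with all libraries. NQO1 shares exon bases with the gene model AC092115.2, which counts without strand cannot tell apart from it. HMOX1 (ENSG00000100292, chromosome 22, 35380361 to 35394214, plus strand), the inducible haem oxygenase, lay at 27.2, 21.4, 21.9 and 27.7 CPM in shControl and at 23.6, 17.9, 16.6 and 20.0 CPM in shSmurf1. Replicate 1 of shSmurf1 lay above the 2 lowest shControl libraries. The log2 fold change of −0.33 ± 0.11 passed (edgeR adjusted p = 0.0399). It did not pass without shControl replicate 1 (0.135) or 4 (0.145), or without shSmurf1 replicate 2 (0.115) or 4 (0.0611), nor with library totals in place of TMM scaling (0.0572), all edgeR adjusted p. The log2 ratio of HMOX1 to NQO1 overlapped between groups (−1.43 ± 0.17 and −1.58 ± 0.29 SD, exact permutation p = 0.457, adjusted 0.457).

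With the genes of NADPH supply and iron storage this group held 14 tested genes, 1 higher and 3 lower. That is 28.6% against 22.5% of all genes tested. BLVRA, which reduces the biliverdin that haem oxygenase makes, rose from 79.1 ± 3.75 to 102 ± 2.26 CPM (0.36 ± 0.054, edgeR adjusted p = 6.14e-05). ME1, malic enzyme, fell from 34.1 ± 1.04 to 26.4 ± 2.88 CPM (−0.37 ± 0.081, edgeR adjusted p = 0.00256), and TKT, transketolase, by 0.18 on the log2 scale. FTL, ferritin light chain, did not pass (515 ± 28.1 and 477 ± 27.3 CPM). It passed as lower in 3 of 17 other fits, among them the correction for GC content (−0.16, edgeR adjusted p = 0.019).

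ABCC3 (ENSG00000108846, chromosome 17, 50634777 to 50692252, plus strand), which exports glutathione and glucuronide conjugates, showed the largest rise. It lay at 10.6, 12.9, 11.6 and 11.5 CPM in shControl and at 21.3, 19.5, 17.4 and 21.3 CPM in shSmurf1. The lowest shSmurf1 library, replicate 3, was above the highest shControl library. The log2 fold change was 0.77 ± 0.10 (1.71-fold, edgeR adjusted p = 1.27e-05), from 177 to 192 counts per shControl library and 264 to 357 per shSmurf1 library. The 112 other tested genes within 5 Mb had a median log2 fold change of 0.09, with 20 higher and 3 lower. Of 7 conjugate and drug exporters, ABCC3 was higher and 0 were lower, or 14.3% against 22.5% of all genes tested (edgeR). The count with DESeq2 and with limma-voom was also 1 higher and 0 lower. ABCC1, a related exporter at 126 ± 2.00 CPM in shControl and 129 ± 4.72 CPM in shSmurf1, did not pass (0.03 ± 0.049).

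Among carbonyl-reducing and related enzymes, 9 of 13 were tested, 1 higher and 4 lower, or 55.6% against 22.5% of all genes tested. PTGR1, a prostaglandin and alkenal reductase, fell from 58.2 ± 1.22 to 41.4 ± 3.43 CPM (−0.49 ± 0.067, edgeR adjusted p = 2.16e-05). AKR1B1, the aldose reductase that makes sorbitol in the diabetic lens, fell from 96.4 ± 2.73 to 79.5 ± 3.90 CPM (−0.28 ± 0.055, edgeR adjusted p = 0.000915). CBR3, a carbonyl reductase, fell by 0.34 on the log2 scale and its relative CBR1 did not pass (0.11 ± 0.057). UGDH, which makes the precursor of glucuronides, also fell, by 0.26. CBR3 and UGDH share exon bases with antisense genes. AKR1C1, one of a family of close copies, was higher on 32 to 69 counts per library (edgeR adjusted p = 0.043) and passed in 10 of 17 other fits.

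Of the genes that make or clear superoxide and peroxide, 7 of 10 were tested, 1 higher and 2 lower. That is 42.9% against 22.5% of all genes tested. SOD2, the mitochondrial superoxide dismutase, rose from 63.0 ± 2.96 to 86.5 ± 8.46 CPM (0.46 ± 0.068, edgeR adjusted p = 5.59e-05). The annotation gives its symbol to 2 overlapping identifiers, and it also overlaps WTAP, so its count is uncertain. CYBA, the p22phox subunit of superoxide-making oxidases, fell from 69.4 ± 1.36 to 49.7 ± 7.90 CPM (−0.48 ± 0.085, edgeR adjusted p = 0.000362). NOX4, the oxidase known to be induced by TGF-β, was lower by 0.32 with an edgeR adjusted p of 0.0451, and passed in 5 of 17 other fits. SOD1 did not pass (159 ± 9.75 and 162 ± 7.46 CPM). Of 7 other NRF2 targets, SESN2, a sestrin that ATF4 and p53 also induce, was lower (50.01 ± 3.63 to 36.5 ± 4.42 CPM, edgeR adjusted p = 0.000456) and 0 were higher (edgeR). For these 7 that is 14.3% against 22.5% of all genes tested. The count with DESeq2 and with limma-voom was also 1 lower and 0 higher. ABHD4, the highest of the others per exon length, did not pass (−0.11 ± 0.065).

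**Figure D4:**
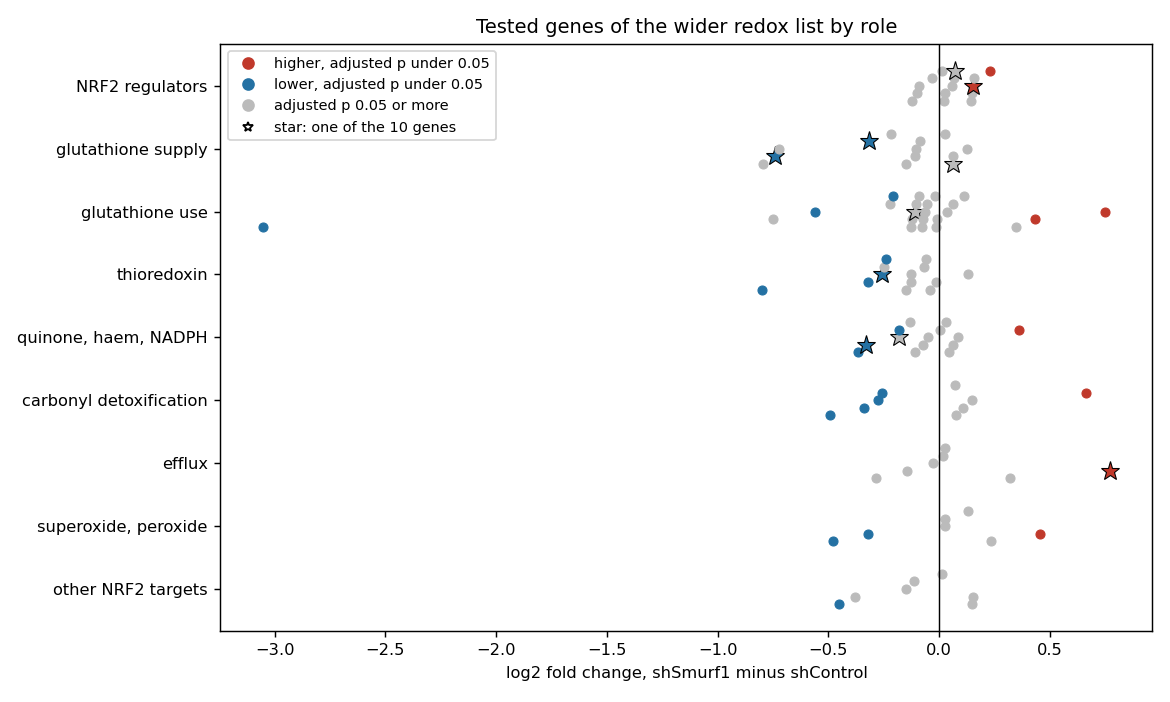
Log2 fold change (x axis) of the 108 tested genes of the wider redox list, 1 row per role, with the 10 genes as stars; red is higher and blue lower at an adjusted p under 0.05, grey did not pass, and vertical scatter has no meaning. Most genes lie near 0, with GSTM3 alone beyond −3.

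Of the 119 genes of these lists together, 108 were tested, 8 higher and 19 lower (edgeR), which is 25.0% against 22.5% of all genes tested. Without the 10 genes it was 6 higher and 15 lower of 98, or 21.4%, near the share over all genes. Their median log2 fold change was −0.053. Without shSmurf1 replicate 3, 13 of the 108 were higher and 27 lower, while the share of all genes tested that passed was 33.7%. Leaving out any 1 of the others gave 4 to 6 higher and 16 to 19 lower, with 17.4% to 18.6% of all genes tested passing. After correction for GC content 9 were higher and 32 lower, with 28.2% of all genes tested passing.

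Levels of different genes were compared as RPKM, CPM per kilobase of exon, with all annotated exons of a gene counted in its length. In shControl the order was TXNRD1 (171 ± 2.09 RPKM), KEAP1 (35.7 ± 1.61), NQO1 (20.2 ± 0.659), SLC7A11 (13.3 ± 0.637), GSR (12.3 ± 1.02), NFE2L2 (11.9 ± 0.348), GCLM (10.5 ± 0.491), HMOX1 (10.2 ± 1.41), GCLC (4.02 ± 0.171) and ABCC3 (1.21 ± 0.102). Libraries overlapped between SLC7A11 and GSR, between GSR and NFE2L2 and between GCLM and HMOX1. HMOX1 also overlapped NFE2L2 and GSR, and GCLM overlapped GSR. Ranges over libraries do not settle the order within these pairs. The genes of a pair were measured in the same libraries, and their order within each library was not compared. In shSmurf1, SLC7A11 stood at 10.7 ± 0.805 RPKM, below NFE2L2 (12.5 ± 0.772). GCLM came after HMOX1 at 6.30 ± 0.670 RPKM, with overlap between the 2, and ABCC3 remained lowest at 2.06 ± 0.194 RPKM.

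The genes with the pattern most like that of GCLM and ABCC3 were sought among 11909 other genes (mean log2 CPM 2 or above) by the root mean squared difference of log2 CPM over the 8 libraries after centring each gene. For GCLM they were C3orf58 (a difference of 0.0535), BCL10 (0.0674) and ERO1A (0.0675), an oxidase of the endoplasmic reticulum. For ABCC3 they were CD276 (0.0544), ASIC1 (0.0648) and RHOB (0.0697). Their log2 fold changes were −0.66, −0.72 and −0.71, and 0.82, 0.82 and 0.78. The search did not leave out genes near GCLM or ABCC3 on the same chromosome. Whether a like pattern reflects position or shared regulation was not tested.

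The calls were repeated under 17 other fits. GCLM, SLC7A11, TXNRD1 and ABCC3 passed with the same sign in all 17, and NFE2L2, GCLC and GSR in 0 of 17. KEAP1 passed in 7, HMOX1 in 12 and NQO1 in 5. GCLM ranged from −0.82 to −0.66 and ABCC3 from 0.72 to 0.83.

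**Figure D5:**
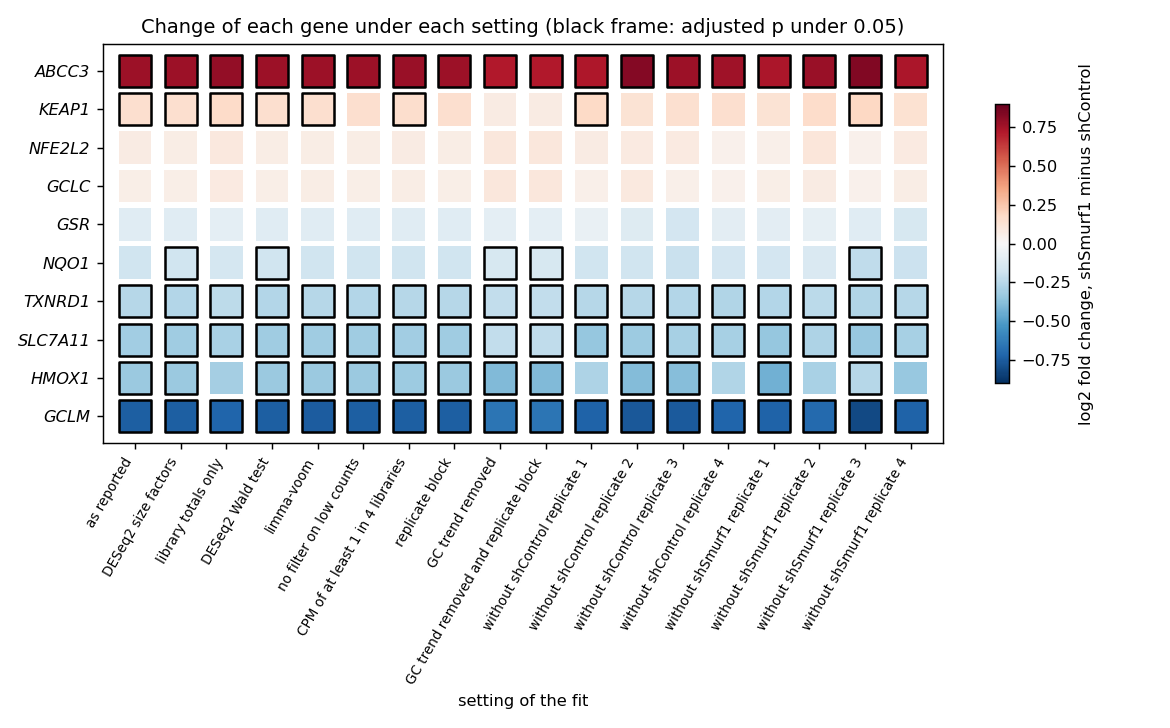
Log2 fold change (colour) of each of the 10 genes (rows) in the fit reported and 17 other fits (columns); a black frame marks an adjusted p under 0.05. The rows of GCLM, SLC7A11, TXNRD1 and ABCC3 are framed throughout, and those of KEAP1, HMOX1 and NQO1 in part.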

How the data were processed

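The authors deposited un-normalized counts, 1 column of whole numbers for each library. The tools listed per the submitters' processing notes are featureCounts (1.5.0-p3), HISAT2 (2.0.5), fastp and CASAVA. For the genome build, annotation and strand setting: not given in the sources used here. Protocols mention no marking of strand. All 58735 identifiers were found in GENCODE release 29 (GRCh38), which gave symbols, positions, exon lengths and GC content. Genes were kept by filterByExpr (minimum count 10), scaled by TMM and tested with edgeR version 4.0.16 in R version 4.3.3 (quasi-likelihood, two-sided, no covariate), with Benjamini-Hochberg adjustment over 15647 genes; standard errors are the log2 fold change over the root of F. Ratios used exact two-sided permutation tests over 70 splits. Counts were simulated over 15438 genes with the means of these groups, with 50 genes changed at each fold. The test recovered 40% of genes changed 1.25-fold and 68% of those changed 1.5-fold, and for 2-fold and 4-fold 80% and 100%. It also called 11 genes that were not changed. Far more genes passed in the data (22.5%), which moves the cutoff on p. The recovery rates therefore do not give the sensitivity of the calls reported. Other settings used DESeq2 version 1.42.0, limma version 3.58.1, other scalings and filters, a GC correction, a replicate block and leaving out each library.

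The 10 genes, the lists and the tests were chosen with earlier results of these data known. Named genes were the 10, SMURF1, BACH1, up to 4 changed genes per list with the largest change and the highest per exon length among those not past the test; others are said to be picked after their values were seen, which also holds for GPX8, UGDH, CUL3 and the markers.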

Additional observations from a re-analysis of the deposited data

Results flagged for a closer look

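In 92 sets of 4 values checked, 5 held a library far from the other 3, where chance alone gives about 1 in 20. GCLC in shControl replicate 2 stood at 36.9 CPM, with the other 3 between 33.8 and 34.2 CPM. The log2 ratio of TXNRD1 to GSR in shSmurf1 replicate 4 was 4.36, with the others between 4.53 and 4.54. CBR1 in shSmurf1 replicate 4 was 65.3 CPM against 63.2 to 63.4 CPM, CBR3 in shSmurf1 replicate 3 was 11.8 CPM against 13.1 to 13.3 CPM, and ABHD4 in shSmurf1 replicate 1 was 51.0 CPM against 46.3 to 46.5 CPM.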

How the results depend on the processing

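The count of higher genes among the 10 was 2 as reported and 1 with no filter on low counts, with the replicate block, and with the GC trend removed with or without that block; leaving out 1 library gave 1 to 2 higher and 3 to 5 lower. In the wider list, the replicate block gave 4 higher in place of 8, the GC trend removed gave 32 lower in place of 19, and both together gave 31 lower; leaving out 1 library gave 4 to 13 higher and 16 to 27 lower. Same-numbered libraries did not deviate together (correlations of 0.0321, −0.0119, −0.0672 and 0.0289), so the numbers were not taken to pair the libraries; with the replicate block 3192 genes passed in place of 3527. Without shSmurf1 replicate 3, 5348 passed, and with the GC trend removed 4413. Signs turned in genes near 0 that did not pass: with the GC trend removed ABCC1 was −0.019 and SOD1 −0.0033 (−0.019 and −0.0028 with the replicate block added), BACH1 was −0.011 without shControl replicate 4 and −0.046 without shSmurf1 replicate 3 (−0.046 to 0.049 over all libraries left out), and NFE2L1 was 0.0027 without shSmurf1 replicate 3 (−0.052 to 0.0027). The causes were not tested. SMURF1 passed in all 17 fits. Ratios kept their sign when each library was left out; that of GCLM to GCLC lay between −0.86 and −0.77, values for which no test was run. The depth limits GSTM3, GSTO2 and AKR1C1, which rest on at most 69 counts per library.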
